A study of Mus musculus with 92 samples.

Results

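Border-associated macrophages live in the meninges, around the larger vessels and in the choroid plexus of the brain, whereas microglia fill its tissue. The genes Cd163, Mrc1, Lyve1, Pf4, F13a1, Cbr2, Stab1 and Folr2 are commonly used to tell such macrophages from microglia, and they were taken as a list by name: 8 of the 29956 named genes of the expression table, with all 8 found. Several of their products bind material outside the cell and carry it inward, which fits cells placed at the border with blood and cerebrospinal fluid. Many macrophages outside the brain, and macrophages grown in culture, carry some of the same transcripts, so the list alone does not name a cell type.

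RNA was sequenced in bulk from 92 mouse libraries. From bone marrow (BM) of wild type FVB mice came 3 libraries of progenitors, 3 of monocytes and 3 of macrophages grown for 7 days with M-CSF, named bone-marrow-derived (BMD) macrophages (replicate 3 carries another library prefix, wBM, than replicates 1 and 2, Mac). ER-Hoxb8 cells are marrow progenitors kept immature by an estrogen-dependent Hoxb8 protein. Cells labelled as from an FVB Cas9 mouse were sequenced at day 0, at day 4 and, as macrophages, at day 7, with 3 libraries each. Days count from when estrogen was withdrawn and M-CSF given. To compare with BMD cells the paper made 3 independent lines, and the labels do not say whether replicate numbers stand for lines. Microglia-like cells (MLCs) were donor cells injected into the brains of Csf1r-/- mice, which lack a receptor that microglia need, and later taken back out by cell sorting: 6 libraries from wild type bone marrow donors and 6 from ER-Hoxb8 donors labelled wild type. The cultured ER-Hoxb8 cells are labelled Cas9 heterozygous, and the labels do not say whether the donors were another line. The paper describes more than 1 ER-Hoxb8 line, among them cells from wild type mice with a GFP transgene. The names of some donor libraries carry GFP, but the labels do not say which line these came from. The libraries of the ER-Hoxb8 donors came in 2 series (GFPHox, replicates 1 to 3, and WTHox, replicates 4 to 6). Microglia were taken from wild type FVB mice that had no injection (9 libraries, of which replicates 8 and 9 carry another library prefix, YSWT).

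The remaining groups were made from Cas9 heterozygous ER-Hoxb8 cells by adding a guide RNA. It was either a non-targeting control (NTC) or a guide against Adar, the gene of the RNA-editing enzyme ADAR1. With guide 1 there were 3 progenitor and 3 macrophage libraries beside 3 and 3 of NTC, and with guide 2 there were 3 progenitor and 5 macrophage libraries with no NTC on the same scale. A further 33 libraries were macrophages grown for 7 days with 0, 0.0006, 0.016, 0.4 or 10 uM of baricitinib, an inhibitor of Janus kinases: 17 NTC and 16 labelled Adar1 KO (guide 1), with 3 or 4 per dose. These are the doses of the sample labels. The treatment text of the same labels and the paper give 0.00064 and 0.16 uM in place of 0.0006 and 0.016 uM. The data do not tell which is right.

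Levels are given as log2 CPM (counts scaled to library size) as deposited. Columns that share 1 lowest value were normalized together, and there were 6 such sets, so comparisons stay inside a set. The in vitro macrophages, MLCs and microglia shared a lowest value of -3.62, which stands for no reads. Estimated depth in that set ran from 24.6 to 43.8 M reads in BMD macrophages, 39.6 to 40.6 M in ER-Hoxb8 macrophages, 17.4 to 26.9 M in BMD MLCs, 8.6 to 25.1 M in ER-Hoxb8 MLCs and 19.2 to 32.7 M in microglia. A gene was called in a comparison when limma gave an adjusted p under 0.05 over all genes tested and a log2 fold change of at least 2 in size. Values are not compared between genes, since a level here also depends on transcript length.

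Some libraries of the brain stood apart. Microglia replicate 8 had a Spearman correlation of 0.776 with the rest of its group, against 0.932 or more for the other 8, and 12900 genes above the lowest value against a group median of 16164. Its summed CPM was 39.8 for the 4 neuron markers (Tubb3 highest, 18.7) and 112 for the 2 oligodendrocyte markers (all of it Mbp, with Mog at the lowest value), where the other microglia libraries had at most 3.36 and 47.0. The 4 astrocyte markers summed to 507 CPM in it (Slc1a3 highest, 391) and to 169 to 353 CPM in the others, where Slc1a3 was also highest. Of these markers, Aqp4 was at the lowest value in all 9 microglia libraries. Aldoc reached a log2 CPM of 6.83 in microglia (median 2.51), and its means were 6.04 in BMD and 6.24 in ER-Hoxb8 macrophages. Cd163, Lyve1, Pf4, Cbr2 and Folr2 were all at the lowest value in microglia replicate 8. ER-Hoxb8 MLC replicate 6 had the lowest sum of the 9 microglia markers among the MLCs, 312 CPM, and the highest sum of the 4 monocyte markers, 11900 CPM (Plac8 highest, 4240). Calls and members' counts that change without these libraries are given below, and the part of neuronal, oligodendrocyte, astrocyte or monocyte RNA in them was not tested. For flow cytometry of engrafted brain cells, the paper describes a gate on live single leukocytes with CD45 and CD11B. Which other cells, or RNA from them, such a gate kept in or out of these libraries was not tested.

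The labels of the brain groups were compared with marker genes. The 9 microglia markers summed to between 47900 and 62800 CPM in microglia, with none at the lowest value and P2ry12 the most abundant in all 9 libraries. The same sum was 2880 to 9760 CPM in BMD MLCs, with Gpr34 or Tmem119 highest, and 312 to 7060 CPM in ER-Hoxb8 MLCs, against 47.2 to 392 CPM in the in vitro macrophages. MLC libraries also carried neutrophil transcripts. The 5 neutrophil markers summed to 6870, 4090, 28100, 31700, 30500 and 29600 CPM in BMD MLCs 1 to 6, with Ngp highest in each. In ER-Hoxb8 MLCs 1 to 6 the sums were 735, 229, 314, 17600, 40400 and 3260 CPM, and in microglia 403 to 5740 CPM. The 4 monocyte markers summed to 1080 to 5540 CPM in BMD MLCs (Chil3 highest in each), 195 to 11900 CPM in ER-Hoxb8 MLCs and 33.0 to 459 CPM in microglia. Fibroblast markers (5 genes) stayed at or under 4.94 CPM in every brain library, and endothelial markers (7 genes) at or under 103 CPM. Whether neutrophil or monocyte RNA has a part in the results below was not tested.

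Of the receptors, Cd163 takes up complexes of haemoglobin and haptoglobin. Its log2 CPM in the 6 BMD MLCs ran from 4.58 to 6.71 (median 5.68), and in the 9 microglia from -3.62 to 2.62 (median -0.13), with replicates 8 and 9 at the lowest value. Every BMD MLC library lay above every microglia library; 11.4% of all genes tested did not overlap between these groups. The difference was 6.32 (log2, SE 0.94, adjusted p 1.31e-05). In bulk RNA, fewer cells of a type and less RNA per cell cannot be told apart, for this and for each later difference.

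Mrc1, the mannose receptor CD206, ran from 10.34 to 11.03 (median 10.66) in BMD MLCs and from 3.07 to 6.25 (median 5.16) in microglia. The BMD MLC libraries were tightly grouped, with an SD of 0.25, and did not overlap microglia. The log2 fold change was 5.85 (SE 0.91, adjusted p 2.27e-05). Stab1, a scavenger receptor of macrophages and sinusoidal endothelium, ran from 8.52 to 9.07 (median 8.87) in BMD MLCs and from 6.19 to 7.18 (median 6.31) in microglia. It was the member with the smallest spread in microglia (SD 0.33), and again the groups did not overlap, with a log2 fold change of 2.31 (SE 0.37, adjusted p 3.67e-05).

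Lyve1, a receptor for hyaluronan, did not separate these groups. It ran from 0.51 to 3.88 (median 1.92) in BMD MLCs and from -3.62 to 3.68 (median 0.73) in microglia, and the difference of 1.18 (SE 1.02, adjusted p 0.489) was within the spread of the libraries. Folr2, folate receptor beta, ran from 1.01 to 4.30 (median 2.86) in BMD MLCs and from -3.62 to 2.32 (median 0.32) in microglia. These groups overlapped too, and the difference of 2.55 (SE 1.09) had an adjusted p of 0.103.

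Pf4 encodes the chemokine CXCL4, which platelets also store. It ran from 5.84 to 8.65 (median 7.97) in BMD MLCs and from -3.62 to 4.40 (median 0.95) in microglia, without overlap, with a log2 fold change of 6.25 (SE 1.11, adjusted p 0.000141). The sum of 9 platelet and megakaryocyte markers was at most 5.52 CPM in BMD MLCs, where Itga2b or Treml1 or Gp1ba was the most abundant, and Ppbp was at or under 3 counts in 5 of 6 libraries. In microglia that sum was 2.29 to 54.7 CPM, nearly all of it Gp9. F13a1, the catalytic subunit of clotting factor XIII, ran from 7.24 to 10.27 (median 8.23) in BMD MLCs and from -0.79 to 6.13 (median 4.49) in microglia. Again no library overlapped, and the log2 fold change was 4.40 (SE 0.92, adjusted p 0.000797). Of the monocyte markers, Chil3, Ly6c2 and Ccr2 were also higher in every BMD MLC library than in every microglia library, while Plac8 overlapped (2.48 to 4.84 against 0.70 to 5.03), and their part in F13a1 was not tested. Cbr2, a carbonyl reductase, ran from 4.88 to 6.67 (median 6.06) against -3.62 to 4.16 (median 0.73), also apart, with a log2 fold change of 4.71 (SE 1.02, adjusted p 0.00113).

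In BMD MLCs against microglia, 6 of 8 members were thus called higher and 0 lower, where 10.7% of the 12518 genes tested were called in either direction. The members' median log2 fold change was 4.56, against 0.06 for all genes tested. The 6 calls held with any 1 of the 15 libraries left out, and with microglia replicate 8 and ER-Hoxb8 MLC replicate 6 both left out. Among 25 other genes described for border-associated macrophages, 23 were tested, 11 were called higher and 1 lower. The greatest changes without overlap between the libraries were those of Ms4a7 (7.04), Cd38 (6.54), Clec4n (5.94) and Dab2 (5.18, all log2 fold changes). Genes that went the other way, named after their values were seen, were Cd209f and Cd209g, both with overlap. Cd209f had a mean of -2.69 in BMD MLCs and 1.22 in microglia. Cd209g was at or under 3 counts in all 6 BMD MLCs and averaged 1.56 CPM in microglia, at least 12.8-fold higher.

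**Figure D1:**
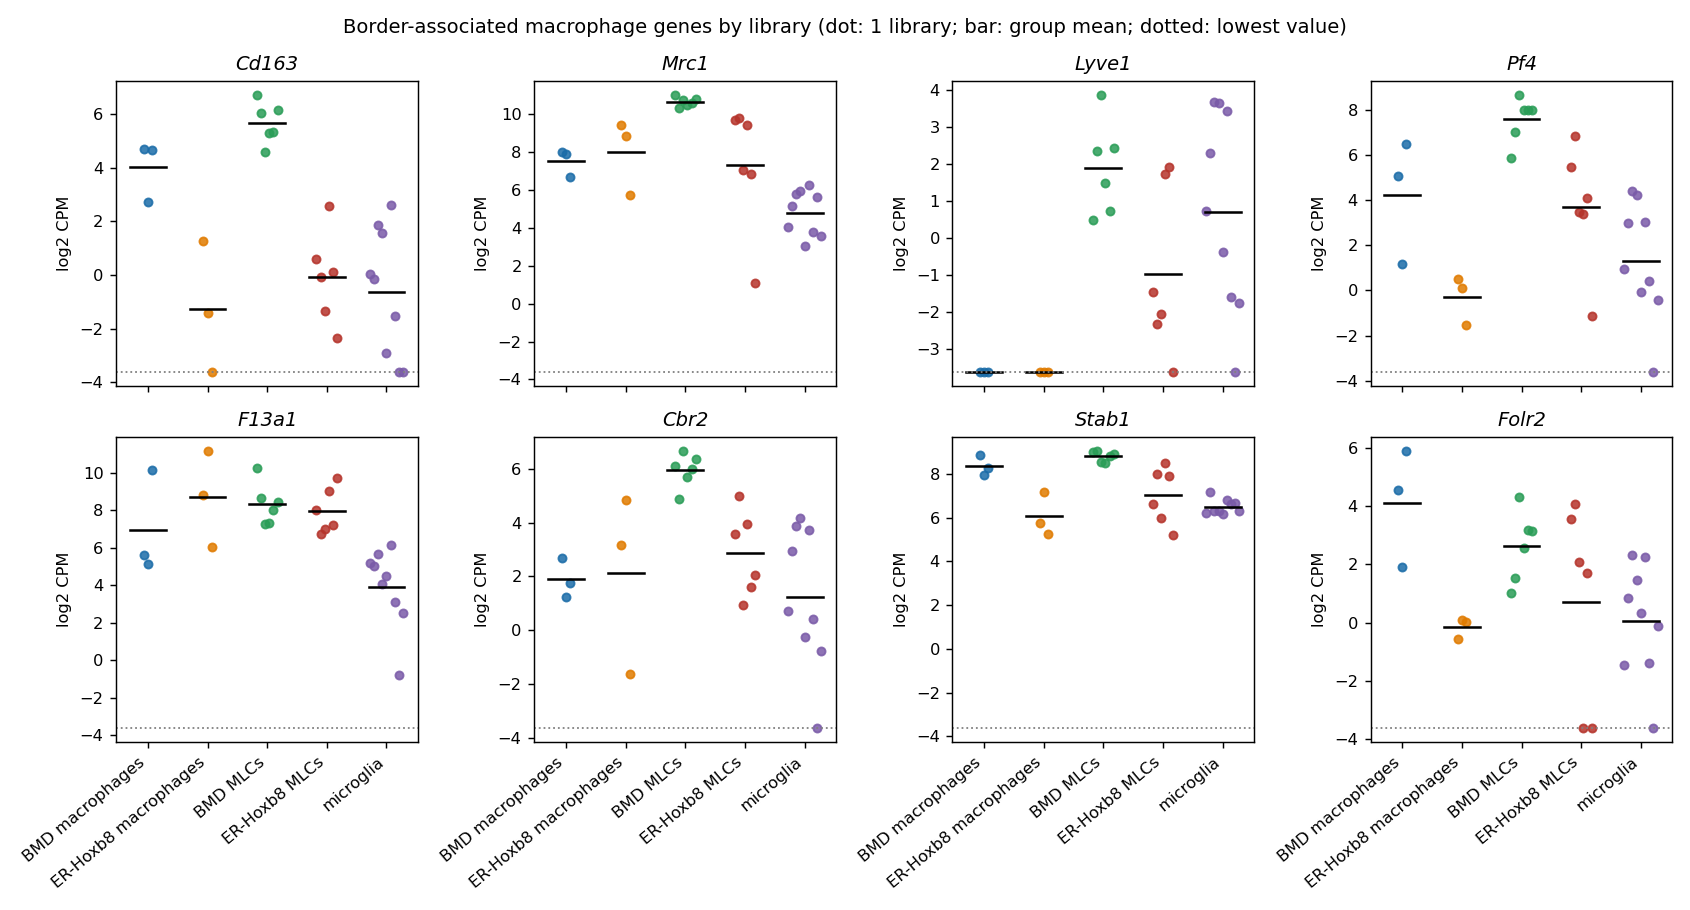
Log2 CPM of the 8 genes in the 27 libraries of the set that holds in vitro macrophages, MLCs and microglia; each dot is 1 library, bars are group means and the dotted line is the lowest value, -3.62. Mrc1 in BMD MLCs sits between 10.34 and 11.03, above every other group, while Lyve1 is at the lowest value in all 6 in vitro macrophage libraries.

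The 250 bases before the start of transcription of the members were taken from RefSeq (build GRCm38.p6). Of the 8 members, 7 had an entry and there were 9 entries, F13a1 and Folr2 having 2 each. They were searched on both strands for 6 short motifs: the ETS core GAGGAA, the MAF motif TGCTGA, the AP-1 site TGANTCA, the E-box CACGTG, a repeat found in interferon-response elements and the SMAD motif CAGACA. Shown are the promoters of 4 members called higher in BMD MLCs than in microglia, each holding the ETS core on 1 of its strands: Mrc1 (chr2:14229164-14229413, plus strand), Pf4 (chr5:90772185-90772434, plus strand), Cbr2 (chr11:120732022-120732271, minus strand) and Stab1 (chr14:31168642-31168891, minus strand). Each is written 5′ to 3′ on the strand of its gene, and capitals mark the motif letters, GAGGAA or its reverse complement TTCCTC, and TGCTGA in Stab1.
Mrc1: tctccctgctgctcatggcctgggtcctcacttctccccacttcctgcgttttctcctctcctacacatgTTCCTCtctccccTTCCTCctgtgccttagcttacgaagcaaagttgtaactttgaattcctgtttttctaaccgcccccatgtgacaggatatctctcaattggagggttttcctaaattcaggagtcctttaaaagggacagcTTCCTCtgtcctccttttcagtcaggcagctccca
Pf4: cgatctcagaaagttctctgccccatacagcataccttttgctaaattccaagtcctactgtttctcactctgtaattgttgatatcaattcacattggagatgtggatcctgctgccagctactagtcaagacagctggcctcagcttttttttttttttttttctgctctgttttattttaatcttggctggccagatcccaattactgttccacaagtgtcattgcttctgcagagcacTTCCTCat
Cbr2: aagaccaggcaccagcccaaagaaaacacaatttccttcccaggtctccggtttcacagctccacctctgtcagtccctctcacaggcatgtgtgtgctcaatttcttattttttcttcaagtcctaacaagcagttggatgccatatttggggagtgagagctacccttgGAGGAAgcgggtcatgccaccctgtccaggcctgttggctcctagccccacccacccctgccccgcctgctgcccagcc
Stab1: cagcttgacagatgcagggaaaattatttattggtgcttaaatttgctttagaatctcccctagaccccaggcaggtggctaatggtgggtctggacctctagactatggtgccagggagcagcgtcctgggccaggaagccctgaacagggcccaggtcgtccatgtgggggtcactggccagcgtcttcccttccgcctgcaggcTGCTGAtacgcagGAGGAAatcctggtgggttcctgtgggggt

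Mrc1 had 3 matches of the ETS core, and Pf4, Cbr2, Stab1 and 1 of the 2 F13a1 entries had 1 each. The promoter of Cd163 held none of the 6 motifs. A MAF motif was found in Stab1 and in both Folr2 entries, and 1 Folr2 entry also held the AP-1 site as TGACTCA. Of 32851 promoters of the same length, 23.3% held the ETS core, 16.1% the MAF motif, 6.75% the AP-1 site, 6.02% the E-box, 2.98% the interferon-response repeat and 17.1% the SMAD motif. Such a match is a description of letters and does not show a bound site.

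Fewer members separated ER-Hoxb8 MLCs from microglia, although more of all genes were called there (2040 against 1338 for BMD MLCs). F13a1 ran from 6.74 to 9.70 (median 7.63) in the 6 ER-Hoxb8 MLCs, above the highest microglia library at 6.13 (11.3% of all genes tested did not overlap). Its log2 fold change was 4.04 (SE 0.92, adjusted p 0.00107), and it was called under each of the 25 alternatives run, with adjusted p between 0.000593 and 0.0398. The highest F13a1 library was replicate 6 (834 CPM), which also had the highest monocyte sum (11900 CPM), and the relation was not tested. Mrc1 spread widely, from 1.09 in replicate 6 to 9.79 in replicate 2 (median 8.24). Replicate 6 lay under all microglia libraries, and the other 5 lay above them, at 6.85 or more. Mrc1 was called with a log2 fold change of 2.50 (SE 0.91, adjusted p 0.0338), or 3.75 without replicate 6, but the call depended on single libraries: it was lost without ER-Hoxb8 MLC replicate 1 (2.03), 2 (2.01) or 4 (2.08), or microglia replicate 1 (2.40), 5 (2.28), 7 (2.37) or 9 (2.35, log2 fold changes). The Mrc1 call was also lost without the filter, with only these groups in the fit, and with the WTHox libraries alone. It was lost as well without the YSWT microglia libraries (2.45, adjusted p 0.0507) and with a replicate block (2.27, adjusted p 0.0794). In those fits limma called Lyve1 lower (-2.66, adjusted p 0.0249, and -3.20, adjusted p 0.00959). The count there stayed at 2, with 1 higher and 1 lower. Pf4 ran from -1.14 in replicate 6 to 6.83 in replicate 2 (median 3.76) and was not called (2.36, SE 1.11, adjusted p 0.106), whereas without replicate 6 it was called at 3.32 and the count rose to 3. With microglia replicate 8 left out as well, Pf4 was called at 2.70 and the count was again 3.

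The other members of that comparison overlapped between the groups: Cd163 (-2.35 to 2.57, median 0.02), Lyve1 (-3.62 to 1.92, median -1.75), Cbr2 (0.96 to 5.00, median 2.82), Stab1 (5.21 to 8.48, median 7.27) and Folr2 (-3.62 to 4.06, median 1.89). Their log2 fold changes against microglia ran from -1.68 for Lyve1 to 1.61 for Cbr2, with adjusted p of 0.219 or more. In all, 2 of 8 members were called, both higher, where 16.3% of all genes were called in either direction. The median log2 fold change of the members was 1.12, against -0.10 for all genes. Of the 23 other border macrophage genes tested, 11 were called higher, among them Ccl8 (8.29), Cd36 (6.31), Clec4n (5.64) and Ms4a6c (5.24), and 3 were called lower. Named after their values were seen, Hpgd (means 0.06 and 4.14), Cd209f (-2.47 and 1.22) and Gas6 (3.98 and 6.39) were lower in ER-Hoxb8 MLCs than in microglia.

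The ER-Hoxb8 MLCs came in 2 series. Folr2 was 3.57, 4.06 and 2.09 in GFPHox replicates 1 to 3 but -3.62, 1.70 and -3.62 in WTHox replicates 4 to 6, and Lyve1 was -1.45, -2.31 and -2.04 against 1.73, 1.92 and -3.62. Folr2 was the only 1 of the 8 members without overlap between the series, where 19.8% of all genes tested did not overlap. Against microglia, the GFPHox libraries alone gave 4 called members (adding Pf4 and Folr2), beside 14.1% of all genes, and the WTHox libraries alone gave 1, beside 20.9%. The difference between the series was not tested. WTHox replicates 4 and 5 were also the ER-Hoxb8 MLCs with the highest neutrophil sums. The monocyte sums were 245, 195 and 335 CPM in GFPHox and 3450, 3430 and 11900 CPM in WTHox libraries. The microglia sums were 7060, 5370 and 2150 CPM in GFPHox and 1690, 1200 and 312 CPM in WTHox libraries. Spearman correlations with the rest of the group were 0.861, 0.871 and 0.884 in WTHox libraries, against 0.921 or more in GFPHox libraries. The part of these differences in the members was not tested.

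When the MLCs of the 2 donors were set against each other, all 8 members had a lower mean in ER-Hoxb8 MLCs. The 6 macrophage markers summed to 5940, 4180, 3460, 2400, 1940 and 2290 CPM in ER-Hoxb8 MLCs 1 to 6. In BMD MLCs that sum was 4100 to 6510 CPM, and its part in the members was not tested. Cd163 showed the widest gap, with its highest ER-Hoxb8 MLC library at 2.57 and its lowest BMD MLC library at 4.58, and a log2 fold change of -5.76 (SE 1.03, adjusted p 0.000345). This call held in every leave-one-out fit. Mrc1 did not overlap either, 9.79 being the highest ER-Hoxb8 value and 10.34 the lowest BMD value, with a log2 fold change of -3.35 (SE 0.99, adjusted p 0.0224). Without ER-Hoxb8 MLC replicate 6, the low library, it was -2.11 (adjusted p 0.0355), near the fold limit. Pf4 was called at -3.89 (SE 1.22, adjusted p 0.0308) although its groups overlapped. The Pf4 call was lost without ER-Hoxb8 MLC replicate 3 (-3.85) or 6 (-2.93), or BMD MLC replicate 3 (-3.68), 4, 5 or 6 (-3.81 in each). With the GFPHox libraries alone, neither Mrc1 (-1.83, adjusted p 0.116) nor Pf4 (-2.32, adjusted p 0.296) was called. The Mrc1 call was also lost with only the 2 groups in the fit (adjusted p 0.0771). The count was 2 with GFPHox alone and 4 with WTHox alone, where 864 and 1163 of all genes were called.

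Stab1 was lower by a smaller step, -1.78 (SE 0.41, adjusted p 0.00358), under the fold limit, and its groups did not overlap (8.48 against 8.52 at the nearest ends), as in 6.98% of all genes tested. F13a1 was alike in both within the spread (-0.36, SE 1.00, adjusted p 0.850). Cbr2 (-3.10, adjusted p 0.0601), Lyve1 (-2.87, adjusted p 0.0857) and Folr2 (-1.93, adjusted p 0.296) were not called. Left-out libraries added calls: Cbr2 without ER-Hoxb8 MLC replicate 2 (-3.53), Lyve1 without replicate 4 (-3.41) or 5 (-3.44) and Stab1 without replicate 4 (-2.07), which took the count to 5. Without microglia replicate 8 and ER-Hoxb8 MLC replicate 6 together, Cbr2 was called (-2.94, adjusted p 0.0416) and the count was 4. With all libraries it was 3 of 8, all lower, beside 6.56% of all genes called, and the median was -2.99 against -0.22 for all genes. Among the other border macrophage genes 2 were called higher and 7 lower, and those without overlap were Hpgd (-5.98), Dab2 (-2.16) and Cd38 (-2.14). The 2 called higher, named after their values were seen, were Ccl8 (6.42) and Cd36 (3.21), both with overlap.

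**Figure D2:**
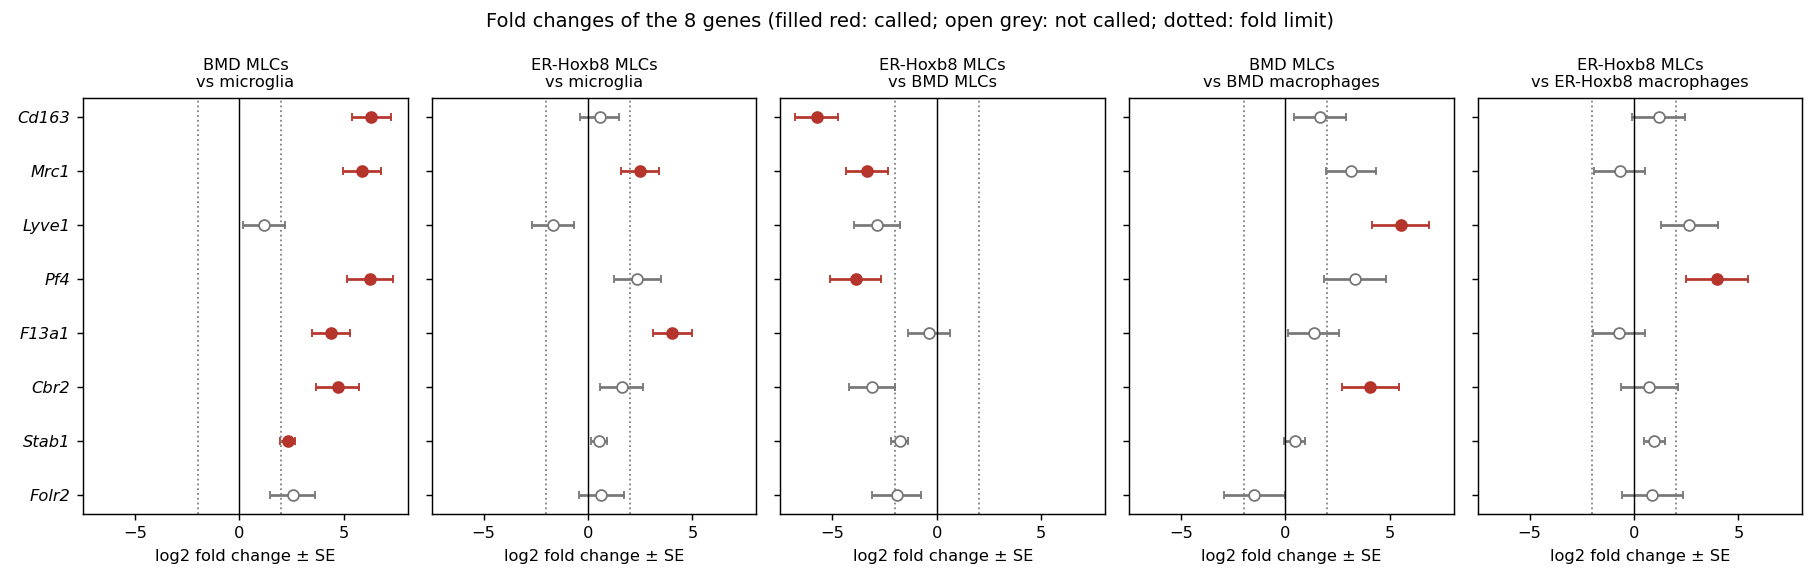
Log2 fold change (dot) with its standard error (bar) of the 8 genes in 5 comparisons of MLCs; red dots are called, open dots are not, and dotted lines mark a log2 fold change of 2 in either direction. The number called is 6, 2, 3, 2 and 1 from the first panel to the last.

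The next comparison asked how the members differed between cells that had been in a brain and macrophages of the same donor type in culture. In the 3 BMD macrophage libraries Lyve1 was at the lowest value, which allows 0.137 CPM at most by 3 counts, while the 6 BMD MLCs averaged 5.12 CPM. It was at least 37.3-fold higher in BMD MLCs (fitted log2 difference 5.52, SE 1.37, adjusted p 0.00359), or at least 23.4-fold without BMD MLC replicate 3, the highest library. Cbr2 was 2.70, 1.22 and 1.76 in BMD macrophages, under the lowest BMD MLC at 4.88. Its log2 fold change was 4.06 (SE 1.36, adjusted p 0.0255), and the call was lost without BMD macrophage replicate 2 (3.73) or 3 (3.99), which left 1 call. Mrc1 was 8.01, 7.92 and 6.68 in BMD macrophages and did not overlap BMD MLCs (43.3% of all genes tested did not), but at 3.14 (SE 1.22) its adjusted p was 0.0516.

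Cd163 (4.71, 2.73 and 4.65), Stab1 (8.86, 7.97 and 8.26), Pf4 (5.06, 1.17 and 6.49), F13a1 (5.63, 5.11 and 10.14) and Folr2 (4.55, 1.90 and 5.91) were already present in BMD macrophages. Each of them overlapped BMD MLCs, with log2 fold changes from -1.50 for Folr2 to 3.33 for Pf4 and adjusted p of 0.0916 or more. BMD macrophage replicate 2 was the lowest library for Cd163, Pf4 and Folr2, and replicate 3, with the other prefix, the highest for F13a1; the part of the prefix was not tested. So 2 of 8 members were called, both higher, where 15.9% of all genes were, and the median was 2.40 against -0.01 (2.40 also with Lyve1 at its bound). With microglia replicate 8 and ER-Hoxb8 MLC replicate 6 left out of the fit, Mrc1 (3.14) and Pf4 (3.33) were called as well, giving 4. Of the other border macrophage genes, 6 were called higher and 3 lower, and Cd38 (7.48), Colec12 (-5.73), Ccl24 (5.42) and Cd36 (-4.20) changed most.

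In the ER-Hoxb8 macrophages of day 7, Pf4 was 0.52, 0.10 and -1.55. It was called higher in ER-Hoxb8 MLCs (3.99, SE 1.49, adjusted p 0.0398), with replicate 6 of the MLCs (-1.14) inside the range of the macrophages. That call was lost without MLC replicate 1 (3.63), 2 (3.36), 4 (4.05) or 5 (3.91), or macrophage replicate 1 (4.40), 2 (4.19) or 3 (3.37), each of which left 0 calls, with adjusted p between 0.00142 and 0.261 over the 18 alternatives for Pf4. Lyve1 was at the lowest value in all 3 macrophage libraries and at least 11.9-fold higher on average in the MLCs, but was not called (adjusted p 0.134). That bound rests on WTHox replicates 4 and 5 (at least 8.09-fold without replicate 4 and 7.23-fold without 5), since GFPHox replicates 1 to 3 held under 3 counts and replicate 6 none. Without microglia replicate 8 and ER-Hoxb8 MLC replicate 6 together, Lyve1 was called (fitted log2 difference 3.18, adjusted p 0.0375), giving 2 calls. Mrc1 (9.43, 8.86 and 5.72), F13a1 (8.82, 11.18 and 6.04), Cbr2 (3.15, 4.85 and -1.63) and Stab1 (5.76, 7.19 and 5.25) were present in culture, and Cd163 (1.28, -1.41 and -3.62) and Folr2 (-0.58, 0.08 and 0.02) were low. All overlapped the MLCs. The count of 1 of 8 stood beside 19.3% of all genes called, with a median of 0.92 against -0.15 (0.92 also with Lyve1 at its bound).

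Among the other border macrophage genes of that comparison, 8 were called higher and 4 lower, with Ms4a6c (8.45), Tgfbi (5.30) and Colec12 (-4.59) among those that changed most without overlap. Ccl8 was at or under 3 counts in the 3 macrophage libraries and at least 2640-fold higher in the MLCs. A test of whether the change from culture to brain differed between the donors called 0 of 8 members with limma, while 1 (Mrc1, -3.82, SE 1.72, adjusted p 0.274) had an unadjusted p under 0.05, as did 15.3% of all genes; 2.48% were called. Without ER-Hoxb8 MLC replicate 6, the Mrc1 value was -2.57. The genotype labels of the ER-Hoxb8 MLCs and of the cultured ER-Hoxb8 cells differ, and an effect of the line, if they were different lines, cannot be told apart from one of the brain.

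Between the cultured macrophages of the 2 sources, limma called 0 of the 7 members tested. Cd163, Pf4, Folr2 and Stab1 were lower in every ER-Hoxb8 macrophage library than in every BMD macrophage library, with log2 fold changes of -5.28 (SE 1.24, adjusted p 0.125), -4.55 (SE 1.34, adjusted p 0.218), -4.28 (SE 0.98, adjusted p 0.110) and -2.30 (SE 0.51, adjusted p 0.104). These 4 also had an unadjusted p under 0.05, beside 12.3% of all genes tested, of which 1.47% were called, and the groups did not overlap in 20.8%. Stab1 became the only call when ER-Hoxb8 macrophage replicate 2 was left out (-2.86). Mrc1 (0.47), F13a1 (1.72) and Cbr2 (0.23) overlapped, and Lyve1 was at the lowest value in all 6 libraries.

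The order of the group means in this set was led by BMD MLCs for Cd163, Mrc1, Lyve1, Pf4, Cbr2 and Stab1. ER-Hoxb8 macrophages led for F13a1 and BMD macrophages for Folr2. Only 2 steps between neighbouring groups were free of overlap: BMD MLCs above ER-Hoxb8 macrophages for Mrc1 (means 10.67 and 8.00), and BMD macrophages above ER-Hoxb8 MLCs for Cd163 (means 4.03 and -0.08). At every other step the neighbouring groups overlapped or were both at the lowest value. Microglia were last for Mrc1, F13a1 and Cbr2.

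Within microglia most of the members rose and fell together from library to library. Replicates 3, 4 and 6 were high in Cd163 (1.88, 1.55 and 2.62), Lyve1 (3.68, 3.66 and 3.45), Pf4 (4.40, 4.23 and 3.03) and Cbr2 (3.87, 4.16 and 3.73), and replicates 5, 7 and 9 were low in the same genes. Replicate 8 was at the lowest value in all 4 but had Mrc1 at 5.66. Over the 8 libraries without replicate 8, all 28 pairs of members had a Pearson r above 0, with a median of 0.78. The highest was 0.98 for Pf4 with Cbr2, and the pairs with Stab1 were the weakest, down to 0.20 with Folr2. With replicate 8, 27 of 28 pairs were above 0 over 9 libraries (median 0.74). The lowest was then -0.01 for F13a1 with Stab1, and Mrc1 with F13a1 was 0.10. How far other genes moved together over these libraries was not tested. All members of a pair share the same libraries and depth, so these values describe a joint rise and fall and nothing more.

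**Figure D3:**
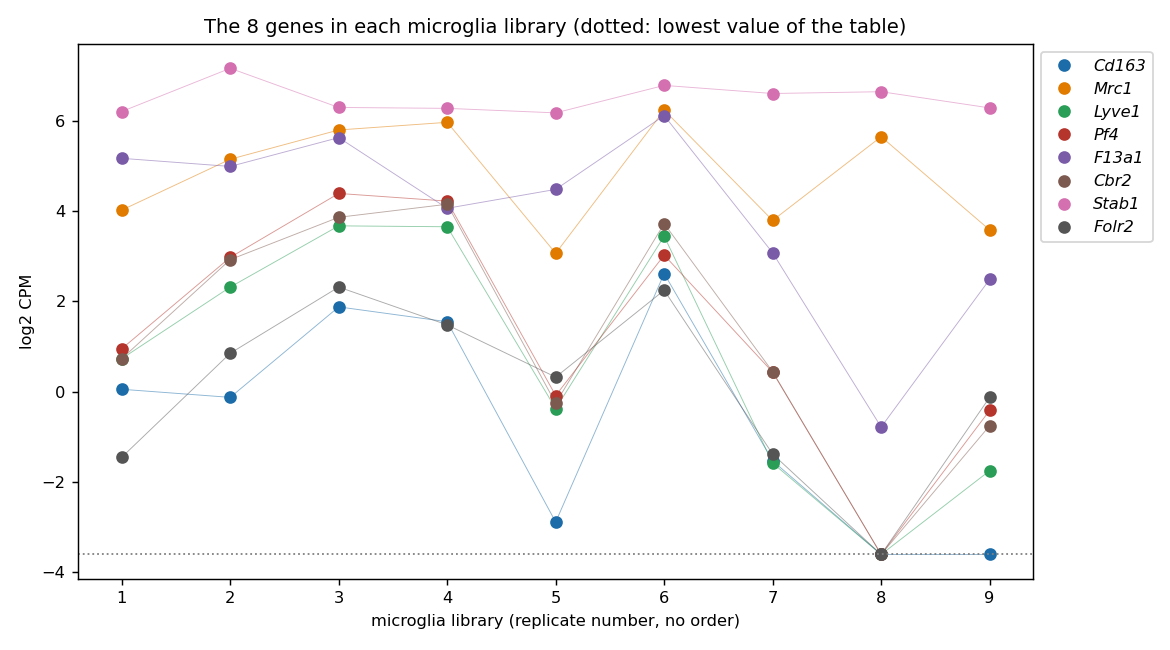
Log2 CPM of the 8 genes in each of the 9 microglia libraries, by replicate number; lines only join the dots of 1 gene and the replicates have no order. Replicates 3, 4 and 6 are high in Cd163, Lyve1, Pf4 and Cbr2 together, and Stab1 stays between 6.19 and 7.18.

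In the MLCs fewer pairs of members had an r above 0, and the difference from microglia was not tested. Over the 6 BMD MLCs, 13 of 28 pairs had an r above 0 (median -0.10), and the pairs ran from -0.94 for Pf4 with F13a1 to 0.94 for Pf4 with Folr2. BMD MLC replicate 1 had the highest F13a1 (10.27) and Cd163 (6.71) with the lowest Pf4 (5.84) and Folr2 (1.01), and replicate 3 had the highest Pf4 (8.65) and Folr2 (4.30) with the lowest F13a1 (7.24) and Cd163 (4.58). Replicate 1 had a microglia marker sum of 2880 CPM, the lowest of the group, and replicate 3 had 9060; the relation was not tested. In ER-Hoxb8 MLCs, 19 of 28 pairs were above 0 (median 0.48), from -0.88 for F13a1 with Folr2 to 0.92 for Mrc1 with Pf4.

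Over all 27 libraries of the set and 12518 genes, the genes most like each member by Pearson r were Trpv4 (0.81) and Itsn1 (0.78) for Cd163, Gm454 (0.86) and Adam33 (0.84) for Mrc1, and Adam33 (0.83) and Trpv4 (0.82) for Stab1. Asb7 (0.85) and Ly6g5b (0.84) were most like Lyve1, and Prune2 (0.83) and Cdhr3 (0.75) most like Folr2. Kank2 (0.83) and Rnf150 (0.81) came first for Pf4, Lsp1 (0.89) and Dna2 (0.88) for F13a1, and Fcgr2b (0.80) and Gm454 (0.77) for Cbr2. How far these values come from differences between the 5 groups was not tested.

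In the set of marrow cells and early ER-Hoxb8 cells the lowest value was -4.34, and estimated depth ran from 34.4 to 48.9 M. F13a1 was 9.22, 9.26 and 9.08 in BM progenitors and 13.04, 12.77 and 12.52 in BM monocytes, apart, with a log2 fold change of 3.59 (SE 0.90, adjusted p 0.0237). It was the only call among the 6 members tested, beside 6.84% of all genes. The fold change ranged from 3.46 to 3.72 over the alternatives, yet the call was lost when any 1 of the 6 libraries was left out: BM monocyte replicate 1 (3.46), 2 (3.59) or 3 (3.72), or BM progenitor replicate 1 (3.61), 2 (3.63) or 3 (3.54). Cbr2 was also apart, at -2.44, 0.76 and 0.22 in progenitors and 2.38, 3.47 and 3.32 in monocytes, but was not called (3.55, SE 1.58, adjusted p 0.155), and 49.1% of all genes tested were apart. The monocyte sum was 383, 1570 and 1550 CPM in BM progenitors and 3960, 5110 and 8770 CPM in BM monocytes. The macrophage sum was 136, 223 and 194 CPM in BM progenitors and 1590, 1490 and 1300 CPM in BM monocytes. The part of these markers in the members was not tested.

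Pf4 was high in both groups, at 5.84, 7.32 and 7.89 in BM progenitors and 8.81, 8.52 and 5.44 in BM monocytes. The platelet and megakaryocyte sum of the same libraries was 217, 500 and 621 CPM, and 2410, 1250 and 120 CPM, with Ppbp highest in each. Within each of these groups the libraries thus ranked alike for Pf4 and for that sum, and the part of platelet RNA in Pf4 here was not tested. Cd163 was even across the groups (3.99, 3.66 and 3.53 against 3.65, 3.56 and 3.01), and Mrc1 (0.77 to 4.15) and Stab1 (0.99 to 1.41) overlapped. Lyve1 and Folr2 were too low to be tested, between -4.34 and 0.78. The members' median was 0.36, against -0.09 for all genes.

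ER-Hoxb8 progenitor replicate 2 was the highest of its group in Mrc1, F13a1 (10.77), Cbr2 (3.51) and Stab1, and it stood apart. Over 12056 genes its Spearman correlation was 0.992 with day 4 replicate 2, but 0.898 and 0.851 with the other progenitors. The 6 macrophage markers summed to 4750 CPM in it, near the 4790 CPM of day 4 replicate 2, where progenitor replicates 1 and 3 had 2140 and 458 CPM and BM progenitors 136, 223 and 194 CPM. The cause was not tested. With it, ER-Hoxb8 progenitors differed from BM progenitors in 3 of the 6 members tested, where 15.3% of all genes were called. Pf4 was 0.49, -0.42 and 0.20, far under BM progenitors, with a log2 fold change of -6.93 (SE 0.87, adjusted p 0.00014). The platelet and megakaryocyte sum was lower too, at 8.32, 2.88 and 1.87 CPM against 217, 500 and 621 CPM, and its part in Pf4 was not tested. Cd163 was -3.53, -1.43 and 0.47, also lower in every library (37.8% of all genes tested did not overlap), at -5.22 (SE 1.24, adjusted p 0.00899). Stab1 was higher, at 2.09, 5.81 and 3.76 against 1.08, 0.99 and 1.28, with a log2 fold change of 2.77 (SE 0.72, adjusted p 0.0147) that fell under the limit without ER-Hoxb8 progenitor replicate 2 (1.81). Mrc1 spread from 2.60 in replicate 3 to 9.00 in replicate 2 and was not called (3.53, adjusted p 0.130); without replicate 3 it was (5.30), which made 4 calls. The median of the members was -0.24, against -0.08 for all genes. The neutrophil sum was 21.8, 36.7 and 11.1 CPM in ER-Hoxb8 progenitors against 272, 9000 and 3960 CPM in BM progenitors. The fibroblast sum was 0.107, 0.468 and 0.388 CPM in ER-Hoxb8 progenitors against 1.98, 65.3 and 82.2 CPM in BM progenitors. The part of these markers in the members was not tested.

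By day 4 no gene was called against day 0, a share of 0% of 12056 genes with limma, while 1129 genes (9.36%), and Stab1 among the 6 members tested, had an unadjusted p under 0.05. Stab1 was 5.25, 5.80 and 6.54 at day 4 and overlapped day 0 (1.97, SE 0.72, adjusted p 0.497). F13a1 was 8.58, 10.75 and 10.69 and Mrc1 8.48, 9.01 and 3.93 at day 4, both overlapping day 0. ER-Hoxb8 progenitor replicate 2, the library like day 4 replicate 2, had nearly the values of that library in F13a1 (10.77 and 10.75), Mrc1 (9.00 and 9.01) and Stab1 (5.81 and 5.80). Without it, Stab1 (2.93) and F13a1 (2.66) were called, giving 2, beside 6.12% of all genes in that fit. Lyve1 was at the lowest value in all 3 day 4 libraries. The median log2 fold change of the members was 1.26, against -0.01 for all genes.

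**Figure D4:**
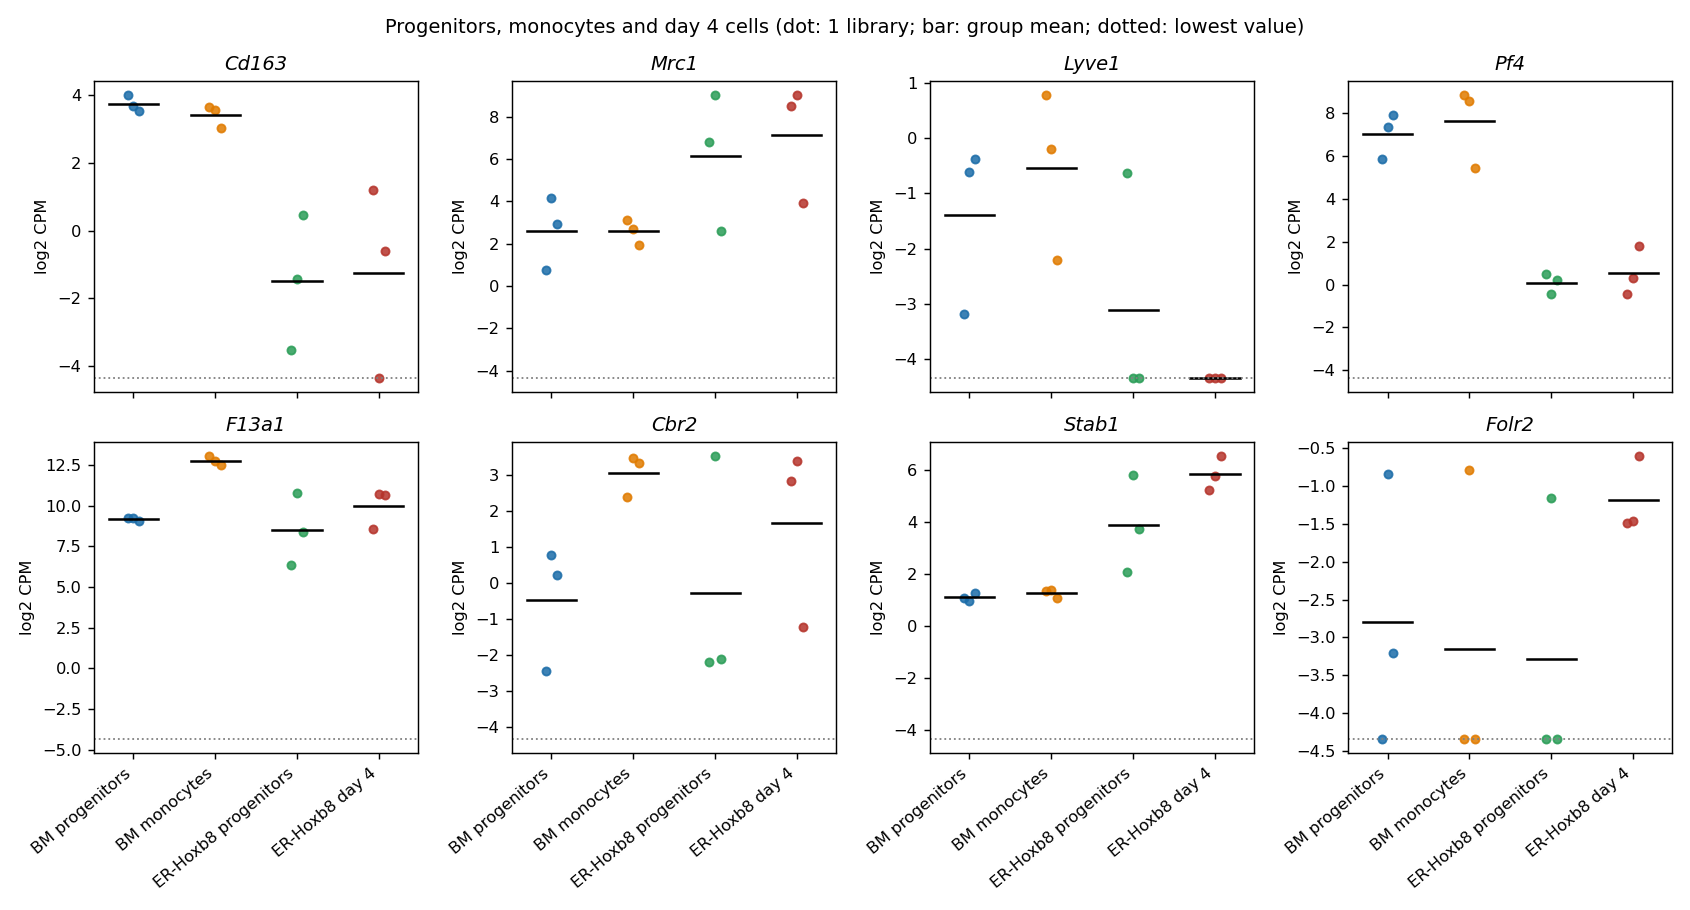
Log2 CPM of the 8 genes in BM progenitors, BM monocytes, ER-Hoxb8 progenitors and ER-Hoxb8 cells at day 4, with 3 libraries each; bars are group means and the dotted line is the lowest value, -4.34. F13a1 reaches 12.52 to 13.04 in BM monocytes, and Pf4 lies at 5.44 or more in both BM groups and at 1.79 or less in both ER-Hoxb8 groups.

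Adar RNA was 6.96, 7.15 and 7.01 in guide 1 macrophages labelled Adar1 KO, above the 5.73 and 5.67 of NTC macrophages 1 and 3, while in progenitors it overlapped (4.36, 4.23 and 4.24 against 4.20, 3.42 and 4.28). In the baricitinib libraries it was higher in KO at 0 uM (7.42, 6.52 and 6.37 against 5.12, 4.94 and 4.69) and lower at 10 uM (1.55, 2.15, 2.91 and 2.03 against 3.70, 3.64 and 3.22). RNA of a gene cut by a guide does not show whether its protein is lost, so it does not check the label. NTC macrophage replicate 2 was alone in its set (lowest value -3.09) and was left out of the fits, which leaves NTC macrophages 1 and 3.

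Of the members, 3 passed the filter in the guide 1 set, where the lowest value was -3.43. From progenitors to macrophages in NTC, Mrc1 went from 6.65, 5.24 and 5.38 to 9.57 and 9.28, with a log2 fold change of 3.67 (SE 0.35, adjusted p 2.39e-06). Stab1 went from 2.96, 4.39 and 3.59 to 6.18 and 6.33 (2.61, SE 0.36, adjusted p 4.51e-05), and F13a1 from 8.10, 8.26 and 7.85 to 10.62 and 10.30 (2.39, SE 0.25, adjusted p 4.9e-06). No library overlapped for any of these 3, as in 79.3% of all genes tested, and all were called, where 23.5% of all genes were called. Below the filter, Cbr2 (1.51 and 1.47 in macrophages) was at least 20.6-fold higher and Folr2 (1.78 and 2.07) at least 28.3-fold higher than the limit of 3 counts in the progenitors, whose libraries were all at or under it. Lyve1 was at or under that limit in every library of the set. From progenitors to macrophages the macrophage sum rose from 328, 283 and 245 to 9450 and 8340 CPM, and the monocyte sum fell from 2820, 2590 and 2270 to 294 and 241 CPM although Ccr2 rose; their part was not tested.

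In guide 1 macrophages labelled Adar1 KO, Mrc1 was 6.30, 5.90 and 6.49, under both NTC macrophages, with a log2 fold change of -3.20 (SE 0.35, adjusted p 6.2e-05). F13a1 was 8.17, 7.57 and 7.72, also apart from NTC (-2.64, SE 0.25, adjusted p 2.01e-05), as were 52.6% of all genes tested. Stab1 was 5.03, 4.16 and 4.41, lower by less than the fold limit (-1.73, SE 0.36, adjusted p 0.00549). Thus 2 of 3 members were called lower, beside 4.02% of all genes, and the calls held with any 1 of the 5 libraries left out, under the assumption that a lone NTC library varies like the other groups. Of the members under the filter, Cd163 was -1.62, -1.56 and -0.57 against 2.19 and 2.25, Folr2 -1.36, -0.25 and -0.43 against 1.78 and 2.07, Cbr2 -2.86, -2.92 and -1.71 against 1.51 and 1.47, and Pf4 -3.43, -2.63 and -1.83 against 0.28 and -1.02. All 4 were lower in each KO library than in each NTC library; with groups of 3 and 2, the groups did not overlap, in either direction, in 19.1% of the genes under the filter that had reads. Cell type markers moved as well: the 4 monocyte markers summed to 1580, 1070 and 588 CPM in KO against 294 and 241 CPM in NTC, and the 6 macrophage markers to 5500, 6240 and 5950 CPM against 9450 and 8340 CPM. Neither list moved as one: Ccr2 was lower in KO (4.90 to 6.07 against 7.28 and 7.38) while Ly6c2, Chil3 and Plac8 were higher, and Fcgr1 was higher (7.61 to 8.39 against 6.08 and 6.26) while Csf1r, Emr1 and Mertk were lower. The 5 neutrophil markers summed to 69.0, 82.6 and 80.6 CPM in KO against 15.4 and 10.7 CPM in NTC, nearly all of it S100a8. The 7 endothelial markers summed to 143, 103 and 105 CPM in KO against 38.1 and 48.7 CPM in NTC, with Flt1 highest in each. The part of these lists in the lower members was not tested.

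With guide 2 there was no NTC on the same scale, so its macrophages were compared with its progenitors only. F13a1 went down, from 9.86, 9.77 and 9.88 in progenitors to 6.05, 6.31, 6.32, 5.99 and 6.29 in macrophages (-3.64, SE 0.08, adjusted p 5.35e-11), where 77.5% of all genes tested did not overlap. The monocyte sum fell from 854, 749 and 757 CPM to 161 to 201 CPM in the same libraries although Ccr2 rose (3.16 to 4.24 against 1.66 to 2.07 in progenitors), and the macrophage sum rose from 356 to 364 CPM to 4690 to 5010 CPM; their part was not tested. Cd163 was lower by less than the fold limit, 1.45, 1.50 and 1.00 against -0.38, -0.28, -0.16, -0.33 and -0.11 (-1.57, SE 0.21, adjusted p 5.42e-05). Mrc1 (0.02, SE 0.08, adjusted p 0.838) and Stab1 (-0.18, SE 0.14, adjusted p 0.254) overlapped. So 1 of 4 members tested was called, beside 19.3% of all genes. Lyve1 and Cbr2 were at or under 3 counts in all 8 libraries, and Pf4 and Folr2 in all 3 progenitor libraries. In guide 1 cells labelled Adar1 KO, F13a1 was 7.29, 6.53 and 6.47 in progenitors, under all 3 macrophage libraries (7.57 or more), and in NTC cells it also rose. The fall was thus seen with guide 2 only, in another set, and the difference was not tested. Mrc1 (6.44, 5.94 and 5.98) in guide 1 progenitors overlapped guide 1 macrophages, and Stab1 (2.96, 2.59 and 2.98) lay under them.

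The baricitinib libraries formed a set with a lowest value of -2.78, and their depth ran from 6.1 to 34.2 M, so low values are less certain than in the other sets. Adar1 KO at 0.4 uM replicate 2 stood apart from replicates 1 and 3, with Adar at 7.38 against 4.12 and 4.21. It belongs to neither group of any comparison here, but adds to the error estimate where the whole set was fitted. At 0 uM, Folr2 was -2.78, -2.78 and -0.98 in KO and 0.88, 2.04 and 1.58 in NTC, and Cd163 was -1.48, 0.04 and -0.62 in KO and 1.89, 2.00 and 2.21 in NTC. Both were lower in every KO library, where 42.1% of all genes tested did not overlap, with log2 fold changes of -3.68 (SE 0.55, adjusted p 1.35e-05) and -2.72 (SE 0.47, adjusted p 8.16e-05). Pf4 was -2.78, -2.78 and -2.20 in KO, all within 3 counts, and -0.50, -0.44 and -0.38 in NTC, at least 1.97-fold lower in KO (fitted log2 difference -2.15, SE 0.54, adjusted p 0.00429).

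F13a1 at 0 uM was 7.52, 8.09 and 8.39 in KO and 9.72, 10.07 and 9.97 in NTC, just under the fold limit (-1.92, SE 0.23, adjusted p 5.28e-07). It passed the limit without KO replicate 3 (-2.11) or NTC replicate 1 (-2.02), which made 4 calls. Mrc1 went the other way, 6.62, 6.56 and 6.47 in KO against 5.66, 5.32 and 5.80 in NTC (0.95, SE 0.27, adjusted p 0.0106), opposite in direction to the guide 1 macrophages of the other set. Stab1 was slightly lower in KO (-0.71, SE 0.16, adjusted p 0.00193), and Cbr2 at least 1.12-fold lower, a bound that is lost without NTC replicate 1. The count was 3 of 7 members tested, all lower, beside 3.87% of all genes. The monocyte sum was higher in the same KO libraries, at 697, 592 and 612 CPM against 279, 328 and 311 CPM in NTC, with Ly6c2, Chil3 and Plac8 higher and Ccr2 lower (3.09 to 5.11 against 7.94 to 8.22). The macrophage sum lay at 5490, 5320 and 5470 CPM against 5670, 5700 and 5790 CPM. Their part in the result was not tested. With a pseudocount of 1 the count was 0, since Folr2 (-1.75), Cd163 (-1.71) and Pf4 (-0.64) then fell under the fold limit. The median was -1.92 (-0.98 with Pf4 and Cbr2 at their bounds), against -0.02 for all genes.

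In NTC cells Mrc1 was lower at 10 uM baricitinib, 3.23, 3.99 and 3.20 against 5.66, 5.32 and 5.80 at 0 uM (-2.12, SE 0.27, adjusted p 6.51e-06). Without 10 uM replicate 3 that fold change was -1.98, under the limit, while Pf4 then passed it (2.21). Pf4 with all libraries rose to 1.44, 2.10 and 0.59 (1.82, SE 0.54, adjusted p 0.0259), and F13a1 to 11.09, 10.98 and 10.95 (1.09, SE 0.23, adjusted p 0.00251), both without overlap, as in 40.7% of all genes tested. Cd163 (0.75, adjusted p 0.306) was higher in each 10 uM library but did not pass the p threshold, nor did Stab1 (0.23), Cbr2 (0.15) or Folr2 (0.06). The monocyte sum fell from 279, 328 and 311 to 138, 139 and 114 CPM (Ly6c2 alone was higher, 4.40 to 4.59 against 4.20 to 4.38) and the macrophage sum from 5670, 5700 and 5790 to 4350, 4620 and 4650 CPM, and their part was not tested. The count was 1 of 7, lower, beside 0.834% of all genes, with a median of 0.23 against 0 for all genes.

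In Adar1 KO cells 10 uM raised 4 of 7 members. F13a1 went to 11.06, 10.62, 11.01 and 10.98 (2.92, SE 0.22, adjusted p 5.15e-12) and Cd163 to 1.54, 2.05, 1.82 and 1.61 (2.44, SE 0.44, adjusted p 2.07e-05). Pf4 went to 0.87, 2.31, 2.13 and 1.18, at least 10.7-fold higher than at 0 uM, and Cbr2 to 1.78, 1.34, 0.83 and 0.68, at least 7.28-fold higher. None of these 4 overlapped 0 uM, as in 64.4% of all genes tested. The monocyte sum fell here too, from 697, 592 and 612 CPM to 184, 150, 124 and 131 CPM (Ccr2 alone did not fall and overlapped), and the macrophage sum from 5490, 5320 and 5470 CPM to 3370, 2980, 2900 and 3030 CPM. The part of these shifts in the members was not tested. Stab1 rose by less than the fold limit (1.47, SE 0.15, adjusted p 2.92e-09), Mrc1 fell slightly (-0.80, SE 0.25, adjusted p 0.00732) and Folr2 overlapped (0.75, SE 0.52, adjusted p 0.202). The 4 calls, all higher, stood beside 14.7% of all genes. They held with any 1 of the 7 libraries left out, but with a pseudocount of 1 only F13a1 was called, because the low levels of Cd163 (1.49), Pf4 (1.96) and Cbr2 (1.61) then gave smaller fold changes. The median was 2.44 (2.44 also at the bounds), against 0.05.

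The doses between were not tested. In KO cells, F13a1 was 8.17, 8.53 and 7.78 at 0.0006 uM, 8.83, 8.93 and 8.31 at 0.016 uM and 11.06, 9.81 and 10.80 at 0.4 uM. Cd163 in KO was -1.57, -2.78 and -0.05, then -1.37, -0.58 and -1.52, then 2.02, 0.37 and 0.58 at the same doses. The 0.4 uM libraries thus lay above the lower doses in both genes. In KO the monocyte sum was 296, 1230 and 269 CPM at 0.4 uM and 577 to 837 CPM at the lower doses. The neutrophil sum was 245, 76.3 and 325 CPM at 0.4 uM and 53.5 to 69.7 CPM at the lower doses. The part of these markers was not tested. Mrc1 in KO was lowest at 0.4 uM (5.04, 3.38 and 4.78) and higher again at 10 uM (5.94, 5.95, 5.60 and 5.51). Without replicate 2, the 0.4 uM libraries still lay under those of 10 uM. Folr2 in KO stayed at or under 0.01 at every dose, while in NTC it stayed at or above 0.88.

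**Figure D5:**
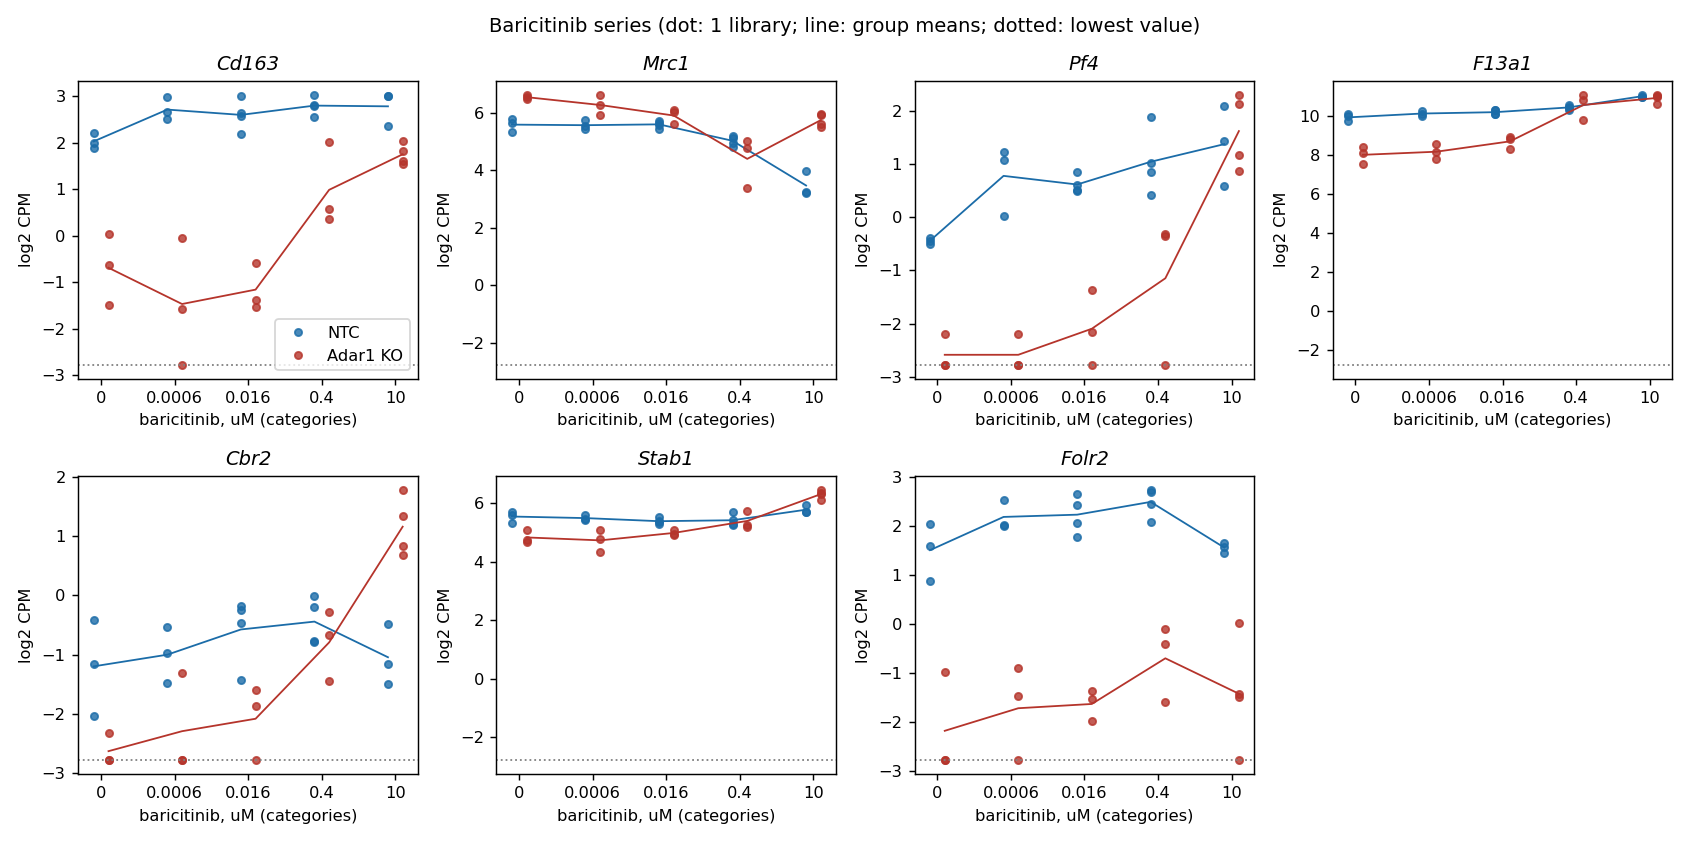
Log2 CPM of 7 of the genes in macrophages grown for 7 days with baricitinib (x axis: dose in uM, as categories); dots are libraries, lines join group means, and the dotted line is the lowest value, -2.78. In Adar1 KO, F13a1 and Cd163 are higher at 0.4 and 10 uM than at 0 uM, and Mrc1 in NTC is lowest at 10 uM (3.20 to 3.99).

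A test of whether the 10 uM change differed between KO and NTC, added after the values were seen, called 2 of 7 members, both with a greater rise in KO, beside 7.11% of all genes. These were Cbr2 (3.63, SE 0.69, adjusted p 0.000164) and Pf4 (2.39, SE 0.75, adjusted p 0.0123), whose fitted sizes depend on KO libraries at or under 3 counts; with a pseudocount of 1 they were 1.58 and 0.82 and the count was 0. Pf4 was also lost without NTC 10 uM replicate 3 (2.00 with rounding, just under the limit), leaving 1. F13a1 (1.83, SE 0.32, adjusted p 5.91e-05), Stab1 (1.24, SE 0.22, adjusted p 9.49e-05), Mrc1 (1.32, SE 0.37, adjusted p 0.00616) and Cd163 (1.69, SE 0.64, adjusted p 0.0379) differed in the same direction under the fold limit. Without KO 0 uM replicate 3, F13a1 passed it (2.03), and without KO 0 uM replicate 2, Cd163 did (2.05), each making 3 calls. The groups at 0 uM and 10 uM are shared with the comparisons above, so these values are no separate support for them.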

How the data were processed

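The deposited table held log2 CPM for 92 libraries and 29957 rows, of which 1 had no gene name (0.00226 to 0.0582% of a library). The authors aligned reads with kallisto 0.46.0 to GRCm39 and made the log2 CPM with edgeR and TMM scaling. The libraries fell into 6 sets by their lowest value, assumed to come from a prior count of 2, and depth was estimated from the steps between low values (6.1 to 48.9 M reads per library), so that 3 counts, the floor used for bounds, was 0.057 to 0.487 CPM. Bounds cover counting error only.

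Each set was fitted with limma 3.58.1 (R 4.3.3) on the deposited log2 CPM, with genes above 1 CPM in at least 3 libraries (6 in fits that held brain cells). Adjusted p is Benjamini-Hochberg over all genes tested, with 0.05 and a log2 fold change of 2 as limits. The fits were tested on simulated data. Tables were made with Python 3.11.15, pandas 2.3.3 and numpy 2.4.6. NTC macrophage replicate 2 was alone in its set and entered no fit. Replicate numbers were checked as pairs: every pair correlated above 0.1 in day 4 against day 0 of ER-Hoxb8 cells (0.23 to 0.43) and in guide 1 against NTC macrophages (0.15 and 0.16), and limma with replicate as a block called 0 and 2 members there, as without it.

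Alternatives left out the filter, used only the groups compared, added a replicate block, a pseudocount of 1, quantile normalization, a fold limit of 1, kept single library series, or left out each library in turn. The members and the marker lists were chosen with earlier results of these data known. Some marker genes are not reported here and are left out of the sums.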

Additional observations from a re-analysis of the deposited data

Results flagged for a closer look

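In groups of 4 or more libraries, 56 combinations of gene and group were checked for a library far from the rest, and 4 were found; chance gives about 1 in 20. Mrc1 in ER-Hoxb8 MLC replicate 6 was 1.09, with the next library at 6.85 and the highest at 9.79. Lyve1 was -3.01 in guide 2 macrophage replicate 3, with the other 4 at -3.56, and -2.18 in Adar1 KO 10 uM replicate 4, with the other 3 at -2.78. Cbr2 was -3.56 in guide 2 macrophage replicate 3, with the next at -2.52. The last 3 are at or near no reads.

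The change from 0 to 10 uM baricitinib differed between Adar1 KO and NTC cells, by a limma test of the difference itself, in 6 members: Cbr2 by 3.63, Pf4 by 2.39, F13a1 by 1.83, Cd163 by 1.69, Mrc1 by 1.32 and Stab1 by 1.24 (log2). By adjusted p alone, 39.5% of the 11152 genes tested (4403) differed too. Only Cbr2 and Pf4 also passed the fold limit, and with a pseudocount of 1 neither did (1.58 and 0.82). This test was added after the data were seen.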

How the results depend on the processing

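Of 1821 alternative values for single genes, 1713 kept their side of the thresholds, 54 gained a call and 54 lost one. None of the called values changed direction; 48 values in 25 combinations of gene and comparison changed sign, none of them called with or without the change. Of the alternative counts of called members, 214 stayed within 1.5 times and 53 did not. The cause was not tested.

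Without the filter the count was 1 in ER-Hoxb8 MLCs against microglia, 0 in ER-Hoxb8 MLCs against their macrophages, 6 in NTC macrophages against progenitors and 6 in guide 1 against NTC macrophages. With only the 2 groups in the fit it was 1 in ER-Hoxb8 MLCs and 0 against their macrophages, 4 in BMD MLCs against macrophages and 2 in monocytes. GFPHox libraries alone gave 4 against microglia and 2 against macrophages, and WTHox libraries 1 and 0. With replicate as a block, ER-Hoxb8 against BMD MLCs gave 5 and BMD MLCs against macrophages 4. A pseudocount of 1 gave 4 in BMD MLCs against macrophages, 0 in Adar1 KO against NTC at 0 uM, 1 for 10 uM in KO and 0 for the difference of the baricitinib changes. Quantile normalization gave 0 in ER-Hoxb8 MLCs against macrophages and 2 for 10 uM in NTC. A fold limit of 1 gave 2 in guide 2 cells, 5 in KO against NTC, 3 for 10 uM in NTC and 6 for the difference. All 5 groups in the fit gave 1 in ER-Hoxb8 against BMD macrophages. Added after the data were seen were the alternatives of the difference of the baricitinib changes, and leaving out microglia replicate 8 with ER-Hoxb8 MLC replicate 6, which gave 4 in BMD MLCs and 2 in ER-Hoxb8 MLCs against macrophages.

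Fits with a single library left out gave 6 to 6 called members in BMD MLCs against microglia, 1 to 3 in ER-Hoxb8 MLCs against microglia, 2 to 5 between the MLCs, 1 to 2 in BMD MLCs against macrophages and 0 to 1 in ER-Hoxb8 MLCs against macrophages. It gave 0 to 1 between the macrophages, 0 to 0 for the donor difference of the change in brain, 0 to 0 in monocytes, 2 to 4 in ER-Hoxb8 against BM progenitors and 0 to 2 at day 4. It gave 3 to 3 in NTC macrophages, 2 to 2 in guide 1, 1 to 1 in guide 2, 3 to 4 in KO against NTC at 0 uM, 1 to 1 for 10 uM in NTC, 4 to 4 in KO and 1 to 3 for the difference.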

Other observations

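NTC macrophage replicate 2, alone on its scale (lowest value -3.09), had Mrc1 at 8.97, F13a1 at 10.09, Stab1 at 6.79, Cbr2 at 2.31, Folr2 at 2.22, Cd163 at 1.91, Pf4 at 0.23 and Lyve1 at the lowest value. The engraftment test of the other border macrophage genes called 3 in which the change of ER-Hoxb8 cells minus that of BMD cells was above 0, among them Ms4a6c (5.54), and 3 in which it was under 0, among them Mgl2 (-7.60) and Clec10a (-4.74). Mgl2 and Clec10a were lower in ER-Hoxb8 MLCs than in their macrophages (means 2.47 and 6.69, 4.31 and 7.83) and higher in BMD MLCs than in theirs (4.87 and 1.48, 5.33 and 4.11).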
